A study of Rattus norvegicus with 12 samples.

Results

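The genes described here encode the subunits of oxidative phosphorylation that are carried in the nucleus, in dorsal root ganglia of rats given vehicle, paclitaxel or oxaliplatin. They were taken by symbol alone: any symbol that starts with Ndufa, Ndufb, Ndufc, Ndufs or Ndufv and a number, with Uqcr, Cox4i, Cox5, Cox6, Cox7, Cox8 or Atp5, or that equals Sdha, Sdhb, Sdhc or Sdhd. This gave 83 of the 20152 genes listed: 37 of complex I, 4 of complex II, 8 of complex III, 17 of complex IV and 17 of complex V. A filter on low counts left 79 of them for testing. The 4 that did not pass were Ndufs6, Cox6a2, Cox8b and Cox8c.

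Dorsal root ganglia hold the cell bodies of sensory neurons, with satellite glia, Schwann cells, vessels and immune cells around them. There were 12 RNA libraries in 3 groups of 4: vehicle, paclitaxel (2.0 mg/kg, first in DMSO, then brought to volume with saline) and oxaliplatin (2.4 mg/kg, carried in a glucose solution of 5.0%). Both drugs went into the peritoneal cavity to produce neuropathic pain, and the study set the 2 drugs' effects on the ganglion transcriptome side by side. A single vehicle group stands against 2 solvents, so drug and solvent cannot be told apart. The labels give no strain, sex, age, number of doses or sampling time, and do not say whether replicates were separate animals, and the p-values therefore rest on the spread among libraries, which may be technical. Totals were 17008728 to 17615736 estimated counts per library. All 16 neuron markers looked for were listed and summed to 17200 to 35000 CPM, which are counts scaled to an equal library size. Paclitaxel 4 stood apart from the other paclitaxel libraries: leaving it out raised the number of genes called against vehicle from 13 higher and 6 lower to 921 higher and 710 lower. Some results that rest on it are given with and without it.

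Oxidative phosphorylation is the last stage of aerobic energy production in the inner mitochondrial membrane. Complex I takes electrons from NADH and complex II from succinate, complex III passes them from ubiquinol to cytochrome c, complex IV hands them to oxygen, and complex V (ATP synthase) uses the proton gradient built on the way to make ATP. Sensory neurons supply very long axons, and impaired mitochondrial respiration in nerve has been reported in rats after both drugs. Most subunits are encoded in the nucleus, while a small core is encoded by mitochondrial DNA. None of the 26 mitochondrial gene names looked for was found among the genes listed, so that core was not analysed here.

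Promoters of the genes the results turn on come first. Nuclear respiratory factor 1 (NRF1), the ETS factor GABPA, YY1, SP1, CREB and the oestrogen-related receptors (ERR) are the classical regulators of this gene set. RefSeq (assembly GRCr8) gave 300-base windows, from 250 bases before to 50 after the gene start, for 70 of the 83 genes. Exact matches on either strand were sought for GCATGCGC (NRF1), CCGGAAG (GABPA), AAGATGGC (YY1), GGGCGG (SP1), TGACGTCA (CREB) and TCAAGGTCA (ERR). Each line below runs 5′ to 3′ on the gene's own strand, with matches in capitals. The build behind the expression files is not given in the sources used here, and the coordinates are those of GRCr8. Uqcrfs1, Atp5b and Cox6b2 are shown because they were called between the drugs, and Ndufs1 because it was called against vehicle. Ndufa6, chosen after its sequence was seen, shows 4 of the motifs together.
Uqcrfs1, chr17:34186352-34186651 (plus strand): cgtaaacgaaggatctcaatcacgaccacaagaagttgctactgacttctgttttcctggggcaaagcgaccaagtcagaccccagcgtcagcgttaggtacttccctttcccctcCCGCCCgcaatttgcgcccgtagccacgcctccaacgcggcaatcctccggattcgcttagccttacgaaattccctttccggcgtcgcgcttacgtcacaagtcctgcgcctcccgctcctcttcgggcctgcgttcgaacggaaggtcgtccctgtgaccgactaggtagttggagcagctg
Ndufs1, chr9:72073556-72073855 (minus strand): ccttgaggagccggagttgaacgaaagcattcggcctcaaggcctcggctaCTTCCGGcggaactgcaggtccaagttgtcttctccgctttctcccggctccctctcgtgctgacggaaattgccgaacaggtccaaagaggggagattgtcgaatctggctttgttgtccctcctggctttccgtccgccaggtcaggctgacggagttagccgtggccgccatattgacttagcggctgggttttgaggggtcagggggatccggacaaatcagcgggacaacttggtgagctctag
Atp5b, chr7:1099808-1100107 (plus strand): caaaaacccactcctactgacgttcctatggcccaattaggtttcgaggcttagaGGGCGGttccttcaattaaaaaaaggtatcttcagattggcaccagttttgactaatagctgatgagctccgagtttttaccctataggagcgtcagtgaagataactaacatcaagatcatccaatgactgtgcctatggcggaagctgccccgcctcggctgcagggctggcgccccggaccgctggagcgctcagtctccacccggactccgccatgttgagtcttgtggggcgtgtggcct
Cox6b2, chr1:78122621-78122920 (plus strand): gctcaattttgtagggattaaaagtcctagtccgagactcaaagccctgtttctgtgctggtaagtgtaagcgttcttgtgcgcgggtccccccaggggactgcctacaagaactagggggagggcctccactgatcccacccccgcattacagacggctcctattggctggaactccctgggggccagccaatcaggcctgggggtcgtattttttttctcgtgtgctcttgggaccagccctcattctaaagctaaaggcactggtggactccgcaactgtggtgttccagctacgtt
Ndufa6, chr7:115750268-115750567 (minus strand): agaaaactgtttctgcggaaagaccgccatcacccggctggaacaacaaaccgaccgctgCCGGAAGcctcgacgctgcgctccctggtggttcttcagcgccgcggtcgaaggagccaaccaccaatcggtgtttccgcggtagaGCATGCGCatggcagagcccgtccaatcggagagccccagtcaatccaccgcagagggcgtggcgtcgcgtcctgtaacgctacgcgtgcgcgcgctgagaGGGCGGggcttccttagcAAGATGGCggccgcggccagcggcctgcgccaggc

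The 3 genes that fell after oxaliplatin in 1 comparison or another each held a single match, an SP1 match in Uqcrfs1 and Atp5b and a GABPA match in Ndufs1. The Cox6b2 window held no match to any of the 6 motifs, and Ndufa6 held matches to GABPA, NRF1, SP1 and YY1. Over the 70 promoters, YY1 was matched in 15 (21.4%, against 4.32% of 14972 promoters of listed genes), GABPA in 19 (27.1% against 13.6%) and NRF1 in 9 (12.9% against 3.92%). The CREB motif was matched in 4 (5.71% against 2.62%), ERR in 2, Atp5g3 and Sdhd (2.86% against 0.287%), and SP1 in 30 (42.9% against 52.0%). Complex I promoters held 8 of the YY1 matches and complex V held 4 each of the NRF1, GABPA and YY1 matches. A match describes letters and is not a site of binding.

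On the FPKM scale, which divides by transcript length and library total so that genes can be compared, 74 of the 83 genes had a vehicle mean above 10. Among those, medians by complex were 373 FPKM in complex IV, 280 in complex V, 208 in complex III, 129 in complex I and 103 in complex II. The highest was Cox6a1, a subunit of complex IV, at 959 ± 54.6 FPKM in vehicle (SD, n = 4), followed by Cox8a at 853 ± 45.0 and Atp5b, the catalytic β subunit of ATP synthase, at 745 ± 44.7. Complex I was led by Ndufa4 at 434 ± 57.1 FPKM, a subunit named for complex I that is now placed with complex IV. In complex III the vehicle means ran from 91.7 FPKM for the core protein Uqcrc2 to 377 for the small subunit Uqcr11, a ratio of 4.11. The 4 subunits of complex II lay within a ratio of 2.08, from Sdhd at 83.1 FPKM to the iron-sulphur subunit Sdhb at 173. Together the 83 genes held 1.05% to 1.38% of all estimated counts per library, highest in vehicle 2 and lowest in oxaliplatin 4.

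**Figure D1:**
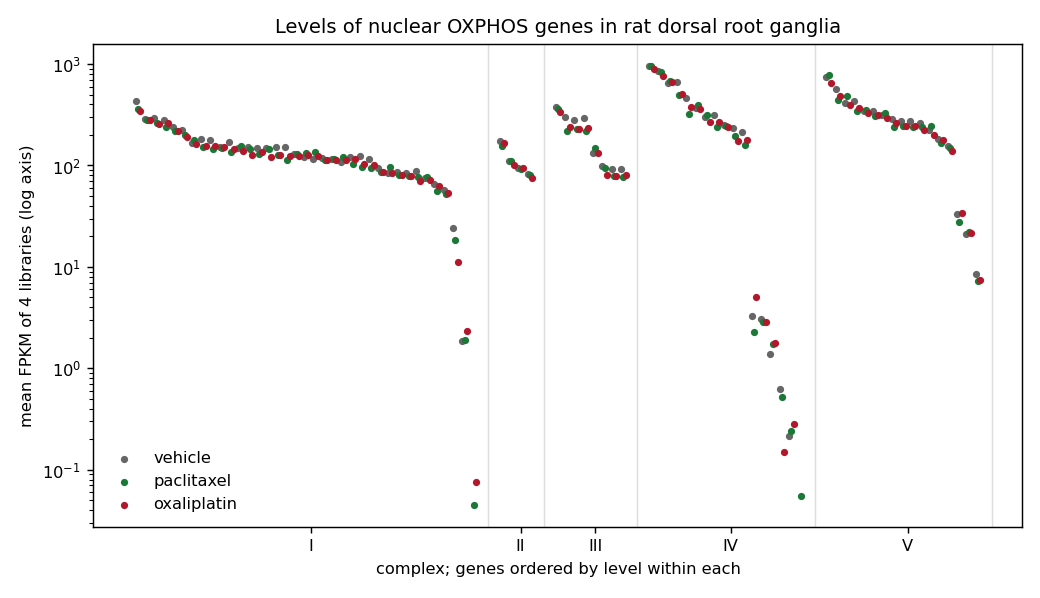
Mean FPKM of 4 libraries for each gene on a log axis, grouped by complex and ordered by level, in grey for vehicle, green for paclitaxel and red for oxaliplatin. Group means at 0 are not drawn. Complex IV held both the highest genes, Cox6a1 and Cox8a, and 6 isoforms below 10 FPKM.

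The symbols do not map exactly onto the complexes. By gene ID, RefSeq gives subunits under other symbols: Ndufa13 (268 ± 21.8 FPKM in vehicle), Cox6b1 (418 ± 15.2), Ndufs6 (66.4 ± 8.30) and Cox7a1 (3.67 ± 0.728) stand in the files under LOC symbols and are not counted here. The gene listed as Ndufs6 is the pseudogene Ndufs6-ps1 in RefSeq and was listed in 4 libraries, and the gene listed as Cox7a1 has no RefSeq entry under its ID, so its identity is uncertain. A gene missing from a library's file was entered as 0. Atp5s and Atp5sl are now named Dmac2l and Dmac2, assembly factors rather than subunits. Of the 79 genes tested, 15 had estimated counts that were not whole in more than 6 libraries, which happens where reads are divided with a similar gene, and are called uncertain here. The plainest case was Ndufa10l1, a paralog of Ndufa10: it was between 21.8 and 49.6 CPM in 9 libraries, at 0.136 in paclitaxel 2 and not listed in oxaliplatin 1 and 3. Medians rather than means are therefore used for each library, except where a mean is named.

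The median over the 79 genes of log2 CPM minus the vehicle mean was -0.059, 0.165, -0.077 and -0.025 in vehicle 1 to 4. It was -0.007, -0.090, -0.143 and -0.032 in paclitaxel 1 to 4, and -0.012, -0.081, -0.220 and -0.339 in oxaliplatin 1 to 4. Vehicle 2 was the highest library and oxaliplatin 4 the lowest, and each drug group overlapped vehicle. Oxaliplatin 1 lay above 3 of the 4 vehicle libraries for these genes, while oxaliplatin 3 and 4 lay below all 8 vehicle and paclitaxel libraries.

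**Figure D2:**
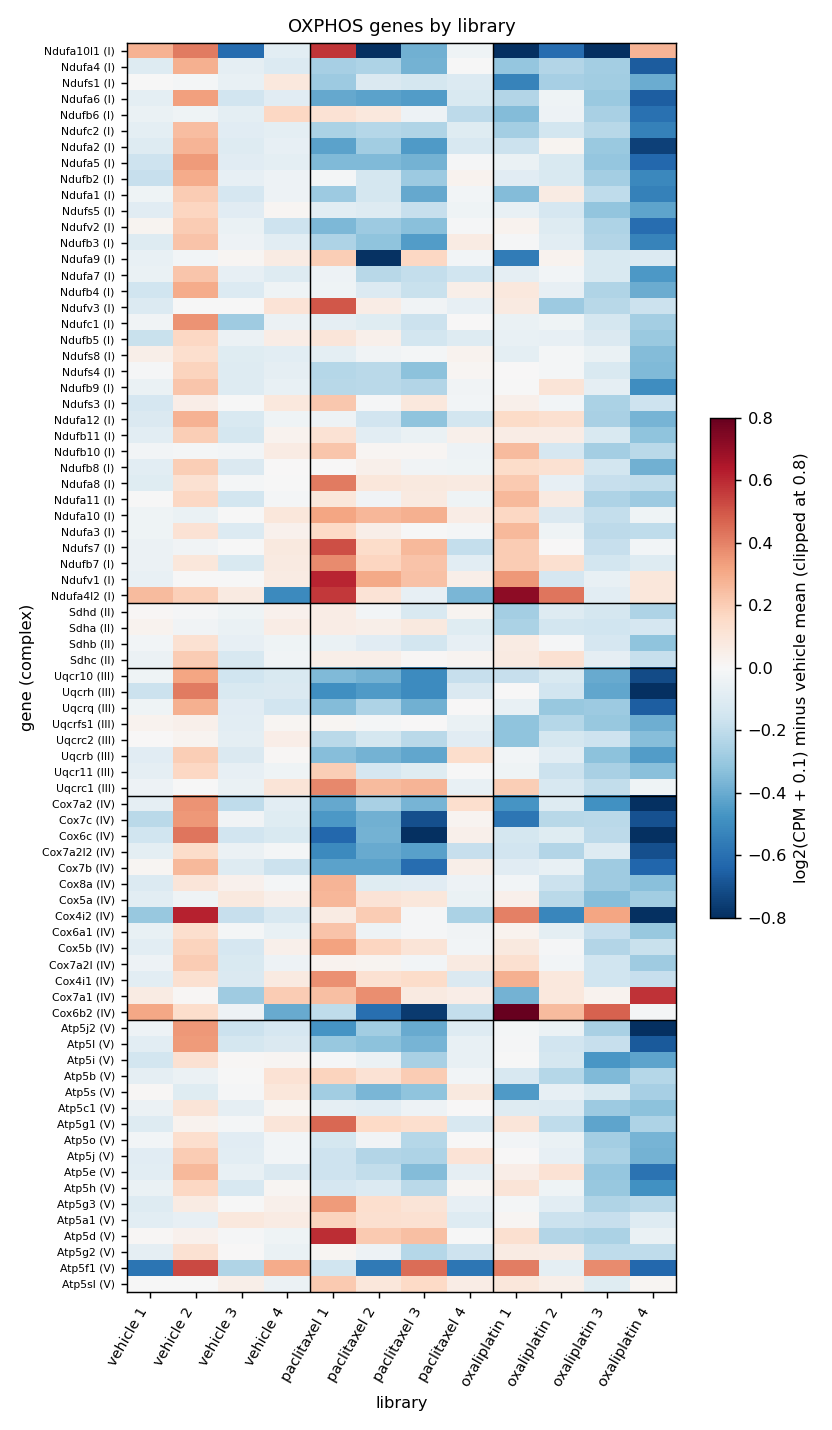
Log2(CPM + 0.1) minus the vehicle mean for 78 of the 79 tested genes (rows, by complex) in each of 12 libraries (columns), red above and blue below, with 10 cells beyond the colour limit of 0.8. Vehicle 2 is mostly red, oxaliplatin 4 mostly blue, and in paclitaxel 1 to 3 both colours occur in every complex.

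Paclitaxel was compared with vehicle first. No gene of the 79 was called in either direction with edgeR's quasi-likelihood test (adjusted p under 0.05, Benjamini-Hochberg over 15809 genes). Few genes of any kind were: 0.0822% of all genes tested were called higher and 0.038% lower. At an unadjusted p under 0.05, 3 of the 79 were higher (3.8%, against 9.18% of all genes) and 8 lower (10.1%, against 7.88%). The median log2 difference was -0.081, with 50 of 79 genes below 0, against -0.012 for all genes. Without vehicle 2 that median was -0.013, and in a limma-trend fit on log2(FPKM + 1) it was -0.129.

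Complex III stood lowest after paclitaxel, with a median of -0.200 (-0.266 without paclitaxel 4) and 7 of 8 genes below 0. Its transcripts ran from 455 bases for Uqcr10 to 1860 for Uqcrc2. Short genes stood lower after paclitaxel, as given below, but the part of length in this median was not tested. Uqcr10, a small subunit of the complex, was at 120, 153, 110 and 113 CPM in vehicle and at 96.3, 94.6, 86.7 and 108 after paclitaxel. The 4 paclitaxel libraries all lay below the 4 vehicle libraries, with a log2 difference of -0.36 ± 0.13 (SE), and an adjusted p of 0.238 in edgeR's test. Uqcrc2, a core protein of the complex and an uncertain gene, was at 170, 172, 161 and 176 CPM in vehicle and at 146, 154, 146 and 159 after paclitaxel. These groups did not overlap either, with a difference of -0.17 ± 0.071 and an adjusted p of 0.262 (edgeR). Its partner Uqcrc1 had the opposite sign, at 204, 209, 202 and 225 CPM in vehicle and 274, 250, 253 and 201 after paclitaxel. For Uqcrc1 paclitaxel 1 to 3 lay above all vehicle libraries and paclitaxel 4 just below them, and the log2 difference of 0.22 ± 0.11 had an adjusted p of 0.303 (edgeR).

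In complex I the median was -0.071, with 23 of 36 tested genes below 0, and 0.009 without vehicle 2. Ndufa6, an accessory subunit, was at 69.2, 91.8, 65.6 and 68.5 CPM in vehicle and at 55.1, 54.4, 53.6 and 67.3 after paclitaxel. Paclitaxel 4 again lay among the vehicle libraries, and the log2 difference was -0.36 ± 0.14 (edgeR adjusted p = 0.244). Ndufv1, the NADH-binding core subunit, was at 164, 171, 171 and 179 CPM in vehicle and at 261, 211, 201 and 177 after paclitaxel, a difference of 0.31 ± 0.12 (edgeR adjusted p = 0.248). The accessory subunit Ndufa10, an uncertain gene, was at 165 to 182 CPM in vehicle and at 178 to 213 after paclitaxel (0.23 ± 0.088, edgeR adjusted p = 0.240). Paclitaxel 1 was the highest library for both genes and paclitaxel 4 the lowest of its group.

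Complexes II, IV and V had medians of 0.006, -0.011 and -0.099 after paclitaxel, with 2 of 4, 7 of 14 and 11 of 17 genes below 0. The first 2 lay close to 0 and had no stable sign: complex II was at -0.042 on the FPKM scale and complex IV at 0.068 without vehicle 2. Complex V was at -0.052 without vehicle 2 and -0.058 without paclitaxel 3. In complex IV the smallest p belonged to Cox7a2l2, by its symbol a relative of Cox7a2l and uncertain, at 82.7, 96.7, 84.7 and 86.5 CPM in vehicle and 61.4, 66.0, 64.6 and 76.9 after paclitaxel. Its groups did not overlap, and the log2 difference was -0.38 ± 0.12 (edgeR adjusted p = 0.209). Cox7c, a small subunit, was at 262, 387, 299 and 285 CPM in vehicle and at 222, 234, 187 and 309 after paclitaxel, with paclitaxel 4 within the vehicle range (-0.37 ± 0.16, edgeR adjusted p = 0.271). In ATP synthase, Atp5d, the δ subunit of the central stalk, was at 376 to 395 CPM in vehicle and at 580, 445, 455 and 384 after paclitaxel (0.27 ± 0.12, edgeR adjusted p = 0.268).

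The 4 libraries of paclitaxel lay wholly below those of vehicle for 6 genes, Ndufa2, Ndufc2, Ndufs1, Uqcr10, Uqcrc2 and Cox7a2l2, where 3.11% of all genes did so. They lay wholly above for 1, the assembly factor Atp5sl, where 3.86% of all genes did. Without paclitaxel 4, edgeR called 2 of the 79 higher, Ndufa10 (0.29, adjusted p = 0.0472) and Ndufv1 (0.39, 0.0487). The same edgeR fit called 4 lower: Cox7a2l2 (-0.45, adjusted p = 0.0386), Cox7b (-0.50, 0.0401), Uqcrb (-0.38, 0.0431) and Cox7c (-0.52, 0.0458). That fit called 5.77% of all genes higher and 4.45% lower, so the members' 2.53% and 5.06% were near or below that background.

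Against vehicle, oxaliplatin was compared next. Of the 79 genes, 70 were below 0, with a median log2 difference of -0.165 (10.8% lower), where the median of all genes was 0.009. Under the other tools, scalings and filters it ran from -0.173 to -0.147, and without 1 library from -0.212 (oxaliplatin 1) to -0.124 (oxaliplatin 4). Complex III was again lowest, at -0.276 with 8 of 8 genes below 0. Complex V was at -0.170 (15 of 17), complex IV at -0.162 (11 of 14), complex I at -0.144 (32 of 36) and complex II at -0.134 (4 of 4). Single libraries moved some of these: complex I was at -0.082 without vehicle 2 and -0.092 without oxaliplatin 4, and complex IV at -0.271 without oxaliplatin 1. The edgeR test called 2 genes lower, Uqcrfs1 and Ndufs1, and 0 higher, where it called 0.708% of all genes lower and 1.05% higher. At an unadjusted p under 0.05, 18 of the 79 were lower (22.8%, against 8.06% of all genes) and 0 higher.

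Uqcrfs1 encodes the Rieske iron-sulphur protein, which takes electrons from ubiquinol in complex III. It was at 109, 110, 101 and 108 CPM in vehicle, 108, 106, 107 and 103 after paclitaxel, and 85.4, 91.2, 86.6 and 81.5 after oxaliplatin. The oxaliplatin libraries lay below all 8 others, which overlapped each other. It fell by 0.31 on the log2 scale after oxaliplatin (SE 0.063, adjusted p = 0.0299 in edgeR), which is 19.4% lower. Ndufs1, the largest subunit of complex I, carries iron-sulphur clusters in its NADH-oxidising arm. It was at 222, 220, 214 and 236 CPM in vehicle, 182, 206, 202 and 207 after paclitaxel, and 154, 185, 184 and 169 after oxaliplatin. Both drug groups lay below every vehicle library, with paclitaxel 1 among the oxaliplatin libraries. The gene fell by 0.36 after oxaliplatin (SE 0.078, adjusted p = 0.0353 in edgeR), or 22.3% lower, and its paclitaxel difference was -0.16 ± 0.077 (edgeR adjusted p = 0.301).

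Both calls were close to the threshold. Each was lost without vehicle 1, 2 or 4, paclitaxel 2 or 3, or oxaliplatin 1, 3 or 4, with adjusted p of up to 0.101 for Uqcrfs1 and 0.122 for Ndufs1. In those fits the log2 difference of Uqcrfs1 ran from -0.322 to -0.295 and that of Ndufs1 from -0.403 to -0.312. With only the vehicle and oxaliplatin libraries in the fit neither was called (adjusted p = 0.0598 and 0.0605), while DESeq2 called both, with 4 other genes, Uqcrc2, Atp5b, Sdhd and Ndufa4. Those 6 are 7.59% of the members, where DESeq2 called 2.87% of all genes lower.

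Other genes, of complexes I, III and IV by symbol, lay in the same direction without passing the test. Uqcrc2 was at 136, 154, 151 and 134 CPM after oxaliplatin, below all 4 vehicle libraries (-0.24 ± 0.071, edgeR adjusted p = 0.103). Ndufa4 was at 306, 400, 312 and 304 CPM in vehicle and at 265, 279, 272 and 207 after oxaliplatin (-0.37 ± 0.12, edgeR adjusted p = 0.130), again without overlap. Cox7a2, a small complex IV subunit and an uncertain gene, had one of the largest differences of the set at -0.46 ± 0.16 (edgeR adjusted p = 0.164), but its 61.7 to 101 CPM after oxaliplatin overlapped the 94.2 to 139 in vehicle.

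In complex II, Sdha, the flavoprotein that oxidises succinate, was at 258, 248, 244 and 264 CPM in vehicle and at 213, 229, 227 and 231 after oxaliplatin. Sdhd, which anchors the complex in the membrane, was at 103, 102, 100 and 105 CPM in vehicle and at 84.9, 95.5, 92.9 and 86.4 after oxaliplatin. Neither gene overlapped between these groups, and the log2 differences were -0.17 ± 0.068 for Sdha and -0.19 ± 0.067 for Sdhd (edgeR adjusted p = 0.215 and 0.169). Sdhb and Sdhc overlapped vehicle, at -0.10 and -0.02.

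In the catalytic head of ATP synthase, Atp5b was at 1240, 1260, 1300 and 1410 CPM in vehicle and at 1190, 1110, 1020 and 1110 after oxaliplatin (-0.24 ± 0.082, edgeR adjusted p = 0.157). Atp5c1, the γ subunit that turns inside the head, was at 162, 180, 159 and 169 CPM in vehicle and 156, 155, 137 and 133 after oxaliplatin (-0.21 ± 0.074, edgeR adjusted p = 0.174). Neither overlapped vehicle. In all, the oxaliplatin libraries lay wholly below vehicle for 10 of the 79 genes (12.7%, against 5.78% of all genes tested) and wholly above for 0 (against 5.54%). The 10 were Ndufa4, Ndufc2, Ndufs1, Sdha, Sdhd, Uqcrc2, Uqcrfs1, Cox7a2l2, Atp5b and Atp5c1.

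**Figure D3:**
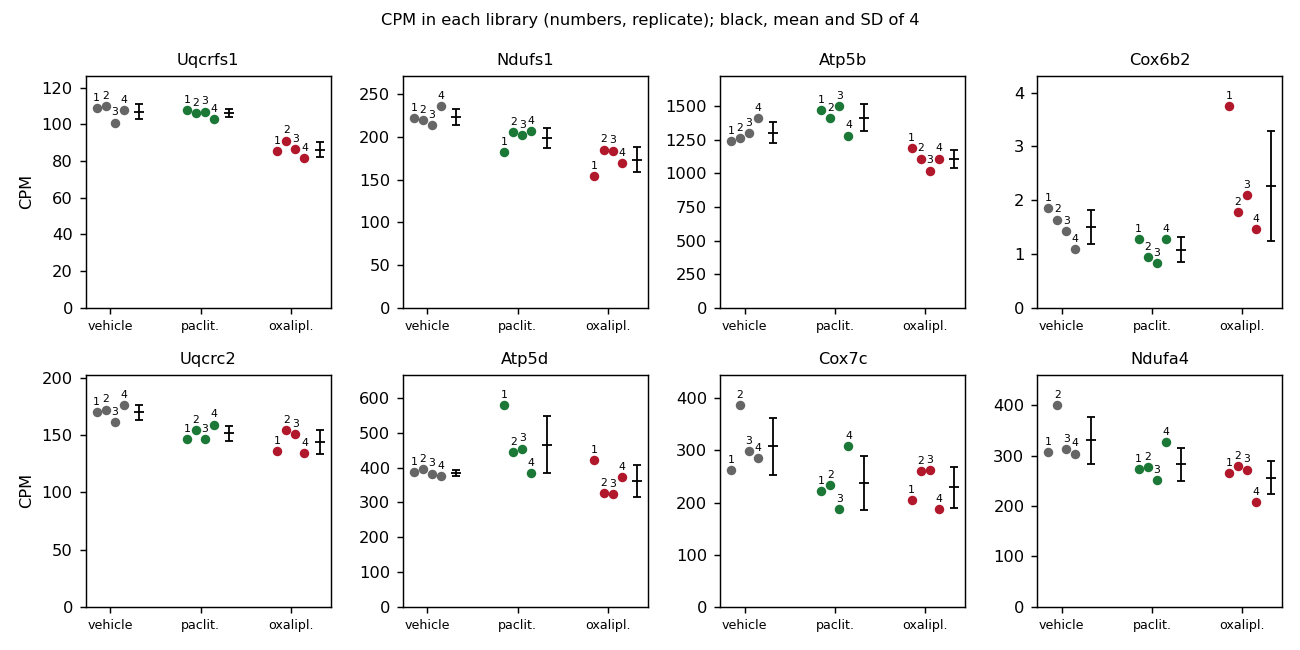
CPM in each library (numbered points) with mean and SD of 4 in black, for 8 genes, each axis starting at 0. The oxaliplatin points of Uqcrfs1 (81.5 to 91.2 CPM) lie below all others, and those of Atp5b (1020 to 1190) do too, while paclitaxel 4 lies nearest to vehicle in Atp5d and Cox7c.

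Between the drugs, oxaliplatin was set against paclitaxel directly. These 3 comparisons share libraries, so their values are not independent of each other. The edgeR test called 2 genes lower after oxaliplatin, Uqcrfs1 and Atp5b, where 4.71% of all genes were called lower, and 1 higher, Cox6b2, where 6.6% were. The members' shares, 2.53% and 1.27%, were thus below the background in both directions. The median log2 difference was -0.084, with 58 of 79 genes below 0, against 0.004 for all genes. This median rested on the scaling and on single libraries: it was -0.010 on log2(FPKM + 1), where that of all genes was 0.064, -0.15 without oxaliplatin 1 and -0.033 without oxaliplatin 4.

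Uqcrfs1 was lower by 18.6% after oxaliplatin than after paclitaxel (-0.30 ± 0.063, edgeR adjusted p = 0.0135), and this call held in the other tools and without any 1 library. Atp5b was at 1470, 1410, 1500 and 1280 CPM after paclitaxel and 1190, 1110, 1020 and 1110 after oxaliplatin, with no overlap. It was lower by 21.9% (-0.36 ± 0.083, edgeR adjusted p = 0.0184), a call that edgeR lost without paclitaxel 2 (adjusted p = 0.0508), paclitaxel 3 (0.0647) or oxaliplatin 3 (0.0606). Cox6b2 is the isoform of a complex IV subunit known best from testis, and its levels were low: 1.27, 0.939, 0.83 and 1.28 CPM after paclitaxel and 3.75, 1.78, 2.09 and 1.46 after oxaliplatin. It was 2.10-fold higher after oxaliplatin (log2 1.07 ± 0.31, edgeR adjusted p = 0.0399), while its vehicle libraries, at 1.09 to 1.85 CPM, overlapped both. Oxaliplatin 1 was the highest library of Cox6b2, and without it the log2 difference was 0.72 and the call was lost (edgeR adjusted p = 0.102). The call was also lost without vehicle 1 or 3, paclitaxel 1, 2 or 3, or oxaliplatin 2 or 3.

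Just above the threshold were Cox5a, a matrix-side subunit of complex IV (-0.30 ± 0.093, edgeR adjusted p = 0.0539), and Atp5d (-0.37 ± 0.12, 0.0569). Cox5a was at 207, 186, 183 and 166 CPM after paclitaxel and 177, 148, 136 and 142 after oxaliplatin, and oxaliplatin 1 lay above paclitaxel 4. Leaving out paclitaxel 4, a fit picked for showing after values were seen, raised the number called lower from 2 to 13. These were 16.5% of the members, where 10.5% of all genes were called lower. Atp5d, Cox5a, Sdha, Uqcrc1 and Ndufa10 were among them. Without oxaliplatin 1, picked in the same way, 6 members were called lower (7.59%, against 3.13% of all genes).

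Oxaliplatin libraries lay wholly below paclitaxel libraries for 5 genes, among them Sdha, Uqcrfs1, Atp5b and Atp5c1 (6.33%, against 6.1% of all genes). They lay wholly above for 1, Cox6b2 (against 9.16%). The first share was near that of all genes and the second below it. Medians by complex were -0.109 (II), -0.100 (IV), -0.090 (I), -0.076 (V) and -0.072 (III), and on log2(FPKM + 1) that of complex III was 0.009. Without oxaliplatin 4 those of complexes I, III, IV and V were -0.032, -0.010, -0.054 and -0.021, and without oxaliplatin 1 they were -0.141, -0.120, -0.201 and -0.143.

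**Figure D4:**
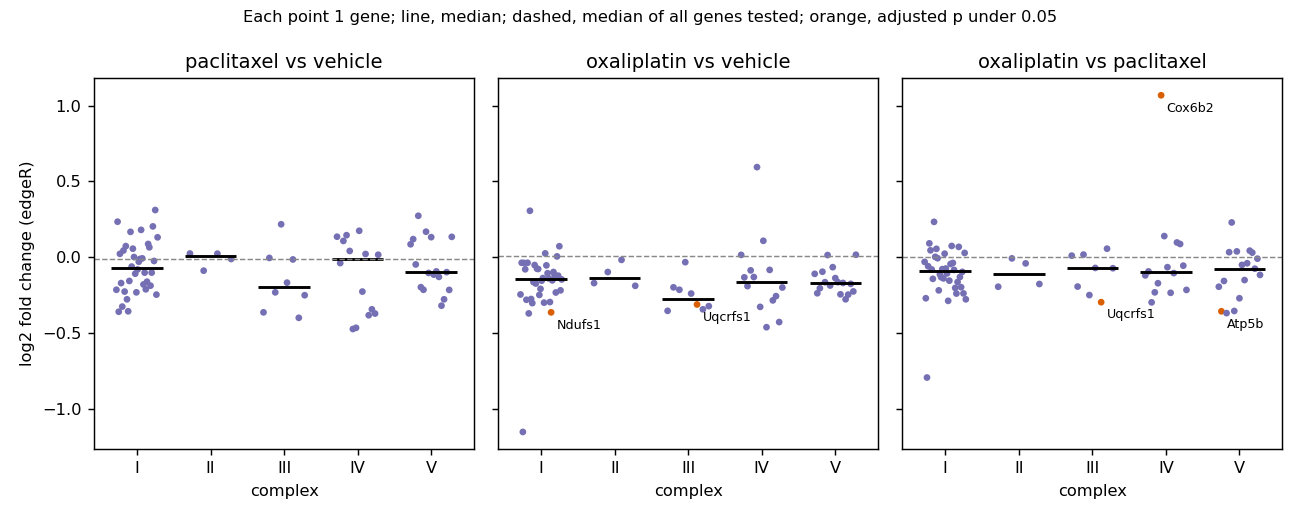
Log2 fold change (edgeR) of each tested gene by complex in the 3 comparisons, with a line at each complex's median, a dashed line at the median of all genes tested, and genes called at an adjusted p under 0.05 in orange. After oxaliplatin every complex's median lies below the dashed line (-0.276 to -0.134), and after paclitaxel those of complexes III (-0.200), V (-0.099) and I (-0.071) do.

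Within complexes, genes were sorted by role, with roles assigned after the fold changes were known. The 7 core subunits of complex I had a median of 0.065 after paclitaxel and -0.122 after oxaliplatin, and the 28 tested accessory subunits -0.091 and -0.144. The NADH-oxidising N module (9 tested) stood at -0.171 and -0.164 in the 2 comparisons and the quinone-reducing Q module (6) at 0.020 and -0.137. In ATP synthase the 5 F1 subunits, Atp5d of the central stalk among them, had medians of 0.085 and -0.165. The 3 genes of the c ring stood at 0.132 and -0.138, and the 7 other stalk and membrane subunits at -0.130 and -0.176. After paclitaxel 7 of 7 stalk and membrane subunits were below 0 and 3 of 5 F1 subunits above 0. After oxaliplatin all 5 F1 and all 3 c-ring genes, and 6 of the 7 others, were below 0. These groups also differ in transcript length, as do the complexes. In F1, Atp5a1 and Atp5b had 1871 and 1759 bases, and in the stalk and membrane Atp5l and Atp5j2 had 515 and 432. Atp5e (404) of F1 and Atp5f1 (1221) of the stalk went the other way. Differences moved with length, as given below, and its part in these contrasts was not tested.

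Several subunits exist as isoforms of different tissues, and the ganglia showed the widely expressed form in each case. Cox4i1 was at 646 ± 48.3 FPKM in vehicle and the lung and hypoxia form Cox4i2 at 3.08 ± 1.01. Cox6a1 (959 FPKM) and Cox8a (853) stood against the heart and muscle forms Cox6a2 (0.217 ± 0.065) and Cox8b (0.625 ± 0.428), and Cox7a2 (235 ± 40.2) against the gene listed as Cox7a1 (1.38 ± 0.156, uncertain). Ndufa4l2, a hypoxia-induced relative of Ndufa4, was at 1.86 ± 0.423 FPKM. Cox8c, a testis form, was listed in 1 of 12 libraries. None of the tested low forms was called against vehicle: Cox4i2 was at -0.04 and -0.13, the gene listed as Cox7a1 at 0.17 and 0.11, Ndufa4l2 at 0.07 and 0.31 and Cox6b2 at -0.47 and 0.59 after paclitaxel and oxaliplatin. The muscle markers looked for were low, with 15 of 15 listed and a sum of 24.2 to 40.6 CPM in every library. Cox8b, with counts of 4, 2, 1 and 6 in vehicle, 1 and 2 in oxaliplatin 3 and 4 and no listing in oxaliplatin 1 and 2, was too sparse for a comparison.

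Many of these transcripts are short, and the differences moved with length, a look taken after the values were seen. Among the 79 genes Spearman's rho between transcript length and log2 difference was 0.41 (paclitaxel against vehicle), 0.30 (oxaliplatin against vehicle) and -0.35 (oxaliplatin against paclitaxel). Among 4364 other genes above 20 FPKM it was 0.27, 0.09 and -0.20. These are correlations across genes of the same libraries, which are not replicates. The 34 genes of up to 600 bases had a median of -0.185 after paclitaxel, with 26 below 0, where 167 other short genes above 20 FPKM stood at -0.235. The 17 genes over 1200 bases stood at 0.024, against 0.076 for 3449 others. Short OXPHOS genes after paclitaxel thus stood where other short, abundant genes stood.

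After oxaliplatin the 34 short genes had a median of -0.239 (32 below 0), against -0.098 for the 167 other short genes, and the 17 long ones -0.153 (13 below 0), against -0.044 for the 3449 others. By library, the short genes stood at -0.026, -0.090, -0.259 and -0.485 in oxaliplatin 1 to 4 and at 0.255 in vehicle 2, and other short genes at 0.051, 0.051, -0.118 and -0.411 and at 0.282. The long genes varied far less. Their medians were -0.134, -0.129, -0.156 and -0.131 in oxaliplatin 1 to 4, all below the vehicle range of -0.052 to 0.068 and the paclitaxel range of -0.024 to 0.177. Other long genes stood at -0.085 to -0.008 in oxaliplatin and -0.013 to 0.025 in vehicle. Of the 10 genes whose oxaliplatin libraries lay wholly below vehicle, 5 of the 17 long genes (Atp5b, Ndufs1, Sdha, Sdhd and Uqcrc2), 3 of the 28 mid-sized (Atp5c1, Ndufa4 and Uqcrfs1) and 2 of the 34 short (Cox7a2l2 and Ndufc2) made up the number.

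**Figure D5:**
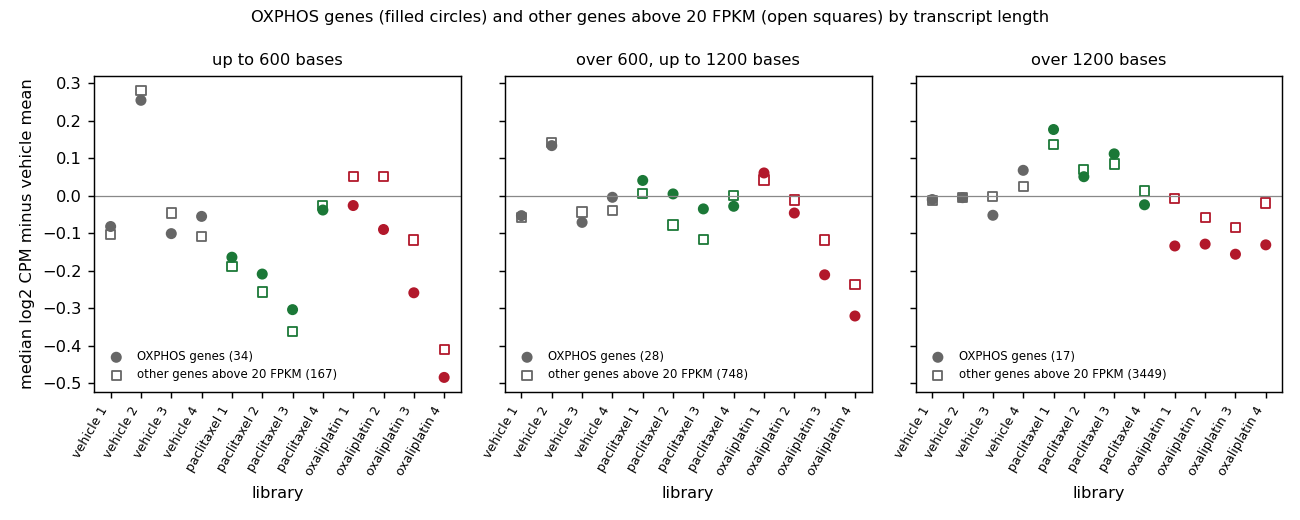
Median log2 CPM minus the vehicle mean in each library for OXPHOS genes (filled circles) and other genes above 20 FPKM (open squares), in 3 classes of transcript length, coloured grey for vehicle, green for paclitaxel and red for oxaliplatin. Up to 600 bases both sets swing together, from 0.255 and 0.282 in vehicle 2 to -0.485 and -0.411 in oxaliplatin 4, and over 1200 bases the 4 oxaliplatin circles lie between -0.156 and -0.129.

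Most members moved together from library to library. Pearson's r between a gene's log2 CPM and the mean of the other members, over 12 libraries, had a median of 0.70, and 56 of 79 genes were above 0.5. That mean kept Ndufa10l1, which took the mean of the 79 genes in paclitaxel 2 from -0.098 to -0.187, so r rests partly on it. The points share their libraries and depth, so r is given as a description. It also spans the differences between groups, and r was not computed for other genes. Other genes of up to 600 bases above 20 FPKM swung too, from a median of 0.282 in vehicle 2 to -0.411 in oxaliplatin 4. Among the members, r was highest for Ndufs5 (0.94), Ndufb2 (0.91), Atp5c1 (0.91) and Uqcr11 (0.89). The lowest were Cox7a1 (-0.39), Cox6b2 (-0.08), Ndufv1 (0.02) and Ndufa4l2 (0.05). Cox6b2, Ndufa4l2 and the gene listed as Cox7a1 are at a few FPKM, while Ndufv1 is an abundant core subunit.

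Other mitochondrial genes were described from lists. After oxaliplatin 19 of 22 tested subunits and carriers with other names were below 0 (median -0.167), and 1 was called, Etfa (-0.40 ± 0.089, edgeR adjusted p = 0.0413), which feeds electrons from fatty acid oxidation into ubiquinone. Of 18 tested genes of the citric acid cycle and pyruvate dehydrogenase 16 were below 0 (median -0.103), and Pdhb, a subunit of pyruvate dehydrogenase, fell (-0.33 ± 0.070, edgeR adjusted p = 0.0359). Slc25a4, the main ADP/ATP carrier of the inner membrane, also fell (-0.31 ± 0.067, edgeR adjusted p = 0.0363), with 10 of 11 carriers and pores below 0. No gene of protein import (median -0.231, 15 of 20 below 0), of complex assembly (-0.101, 33 of 46) or among 19 regulators of biogenesis (-0.009, 10 of 19) was called against vehicle. The regulators thus had a median near that of all genes. Of all genes 0.708% were called lower after oxaliplatin against vehicle.

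After paclitaxel no gene of these lists was called. For glycolysis, 16 of 16 tested genes were above 0 (median 0.310), and 14 had an unadjusted p under 0.05, while after oxaliplatin the median was 0.088, with 11 of 16 above 0. The mean log2 CPM of these genes minus the vehicle mean was 0.482, 0.293, 0.294 and 0.046 in paclitaxel 1 to 4. Without paclitaxel 4 edgeR called 10 of the 16 higher (median 0.368, 15 above 0), where it called 5.77% of all genes higher. Between the drugs edgeR called 6.6% of all genes higher and 4.71% lower. In that comparison 2 of 16 glycolysis genes were called lower after oxaliplatin, Pgam1 (-0.41 ± 0.096, edgeR adjusted p = 0.0185) and Pfkp (-0.36 ± 0.093, 0.0273). Of 18 genes of the citric acid cycle and pyruvate dehydrogenase 3 were called lower, Dlst and Cs of the cycle and Pdhb of the dehydrogenase. Among 46 tested assembly factors 1 was higher, Surf1 of complex IV assembly (1.31, edgeR adjusted p = 0.0190), and 2 were lower, Lyrm7 (-0.35) and Atpaf1 (-0.36). For the assembly factors both shares lay below those of all genes. Gpd2 (-0.37), Higd2a (-0.35), Timm23 (-0.32) and Slc25a4 (-0.26) were lower as well. Esrra, the oestrogen-related receptor that regulates oxidative genes, was lower too (-0.41 ± 0.11, edgeR adjusted p = 0.0360), with neither drug's difference from vehicle called.

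Markers of cell types moved with these groups. The 16 neuron markers, all listed in every library, summed to 24100 to 27700 CPM in vehicle, 24300 to 35000 after paclitaxel and 17200 to 22300 after oxaliplatin. After oxaliplatin 15 of the 16 were below 0 (median -0.191), of which Nefl and Nefm, neurofilament subunits, were called (-0.67 ± 0.14 and -0.63 ± 0.15, edgeR adjusted p = 0.0359 and 0.0490). After paclitaxel 16 of 16 were above 0 (median 0.238) and 0 were called. The mean log2 CPM of the neuron markers minus the vehicle mean was -0.226, -0.301, -0.391 and -0.075 in oxaliplatin 1 to 4, and 0.378, 0.178, 0.300 and 0.011 in paclitaxel 1 to 4. Paclitaxel 4 lay among the vehicle libraries, and without it 6 of the 16 were called higher against vehicle (median 0.311). That fit called 5.77% of all genes higher. Between the drugs 16 of 16 were below 0 after oxaliplatin (median -0.413), with 10 called lower, and 14 without paclitaxel 4. Of all genes 4.71% were called lower, and 10.5% without paclitaxel 4. In bulk tissue fewer neurons, less RNA per neuron and a larger share of RNA from other cells cannot be told apart.

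Markers of other cells differed as well. The 10 erythroid markers listed, of 11 looked for (Hba-a2 was not), summed to 899 to 1840 CPM in vehicle, 295 to 1120 after paclitaxel and 1770 to 6170 after oxaliplatin. White adipocyte markers (8 of 8 listed) summed to 16.4 to 30.8, 5.44 to 18.4 and 26.6 to 82.8 CPM in the same order. Of these, Fabp4, Cidec and Adipoq were called higher against vehicle after oxaliplatin, by log2 differences of 1.96, 2.15 and 2.43 (edgeR adjusted p = 0.0320, 0.0363 and 0.0490), and 0 of the 10 tested erythroid markers were. B and plasma cell markers (7 of 8 listed, without Jchain) summed to 11.7 to 15.6, 4.0 to 12.2 and 12.5 to 69.8 CPM. Brown adipocytes, which are rich in these complexes, showed 3 of 5 markers, at 7.58 to 18.2 CPM over all libraries, and 2, Ucp1 and Elovl3, were not listed in any. Among cells of the ganglion, markers of macrophages (10 of 10 listed) summed to 189 to 339 CPM in vehicle, 96.4 to 170 after paclitaxel and 211 to 258 after oxaliplatin, with 2 called lower after paclitaxel. Fibroblast markers (8 of 8) summed to 2620 to 3730, 2100 to 2690 and 3410 to 4220 CPM, and neutrophil markers (8 of 8) to 46.5 to 96.6, 12.9 to 39.7 and 18.2 to 88.7. The ranges of the 3 groups overlapped for satellite glia (7 of 7, 1190 to 2310 CPM over all libraries) and Schwann cells (8 of 8, 11100 to 23400). Endothelial markers (8 of 8) summed to 160 to 214, 149 to 175 and 195 to 229 CPM, with 0 called against vehicle in either drug group. Between the drugs edgeR called 8 of 10 tested erythroid, 6 of 7 white adipocyte and 5 of 6 B cell markers higher after oxaliplatin. Also higher were 5 of 8 fibroblast, 4 of 10 macrophage, 3 of 8 endothelial and 1 of 7 satellite glia markers. For Schwann cells and neutrophils 0 were called. Of all genes, 6.6% were called higher. The part of any of these cell types in the OXPHOS differences was not tested.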

How the data were processed

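Total RNA of 12 rat dorsal root ganglion samples was made into libraries with reagents for the BGISEQ-500, as the labels state. The labels also name Illumina protocols, so they do not settle the platform. The authors deposited expected counts and FPKM per gene for each library. Per the submitters' processing notes CASAVA 1.4 and Bowtie2 were used. The quantifier, genome build and strand setting are not given in the sources used here. Expected counts were rounded, and genes passing edgeR's filterByExpr (15809 of 20152) were fitted over all 12 libraries with TMM factors and the robust quasi-likelihood test (edgeR 4.0.16, R 4.3.3). Calls are adjusted p under 0.05, Benjamini-Hochberg over all genes tested. Standard errors are the log2 difference divided by the root of F. CPM uses TMM-scaled library sizes. Alternatives used DESeq2 1.42.0 and limma 3.58.1, other filters and factors, the 2 compared groups alone, the replicate number as a block, and each library left out. The FPKM fits used pseudocounts of 1 and 0.1. The script was tested on simulated data. Named genes are those called, the 2 smallest p per complex and comparison, the highest and lowest FPKM per complex, and tissue isoforms. Other named genes were chosen after their values were seen. The members and lists, including those for pathways, glycolysis and cell types, were chosen with earlier results of these data known. RefSeq entries matched 82 members by gene ID. The values of 1 member are not reported here, and it stays in the counts and medians.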

Additional observations from a re-analysis of the deposited data

Results flagged for a closer look

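In groups of 4 libraries, 13 of 111 tests found 1 library far from the other 3 by Dixon's test, where chance alone gives about 1 in 20. Vehicle 2 was the far library in 6 of the 13. The mean log2 score of complex IV was 0.215 in vehicle 2, and that library was also high for Atp5l (264 CPM), Cox4i2 (3.16 CPM), Ndufa4 (400.0 CPM), Ndufa6 (91.8 CPM) and Uqcr11 (211 CPM). Paclitaxel 4 stood apart from the other paclitaxel libraries for Atp5s (17.8 CPM), Ndufa6 (67.3 CPM), Uqcrb (105 CPM) and Sdha (237 CPM), the first 3 above and the last below them. Paclitaxel 1 was far from its group on the high side for Cox6a1 (585 CPM) and Cox8a (478 CPM). Vehicle 3 was the low library of Uqcrfs1 (101 CPM), and without it the oxaliplatin difference of that gene was -0.343 on the log2 scale.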

How the results depend on the processing

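Counts of calls were labelled by a set ratio to the main count, and medians by whether they shifted less than the SD between libraries. By these rules 513 values under other settings stayed the same, 26 were weaker, 11 stronger and 2 moved. A median could change sign and still count as the same, as complex I after paclitaxel did without vehicle 2 (-0.071 to 0.009). For single genes 585 kept their direction and side of the threshold, 36 were weaker, 37 stronger and 2 reversed. After paclitaxel, limma voom with quality weights called 3 genes higher (3.8%, with 6.98% of all genes) and 6 lower (7.59%, with 5.78% of all genes) against 0 and 0, and leaving out 1 library gave 0 to 2 and 0 to 4. After oxaliplatin, genes called lower numbered 6 with DESeq2 (7.59%, with 2.87% of all genes), 1 with limma-trend on log2(FPKM + 1) and 1 with a pseudocount of 0.1, 0 with only the 2 groups in the fit, and 0 to 2 without 1 library, against 2. Between the drugs, genes called higher numbered 0 with only the 2 groups and 0 to 1 without 1 library, against 1. Those called lower numbered 5 with DESeq2's size factors in edgeR (6.33%, with 5.65% of all genes), 11 with DESeq2 (13.9%, with 9.31%), 13 with voom (16.5%, with 14.6%), 4 at a mean CPM of at least 1 (5.06%, with 5.19%), and 1 to 13 without 1 library, against 2. With the FPKM fits the complex II median between the drugs was -0.031, and Sdha after paclitaxel was -0.024 at both pseudocounts, reversed from 0.024. Of all genes, the FPKM + 1 fit called 1507 higher and 277 lower between the drugs, against 1044 and 744, and 256 and 74 after oxaliplatin, against 166 and 112. DESeq2 called 436 and 445 after oxaliplatin and 121 and 126 after paclitaxel, where edgeR called 13 and 6. The cause of these differences was not tested. The settings shown in detail for calls among the members, such as those without paclitaxel 4, were chosen after seeing the data. Leaving paclitaxel 4 out of the neuron marker and glycolysis lists was also chosen after seeing the data. Deviations from the group mean had correlations of -0.232 to 0.157 between same-numbered libraries. The labels do not say that the numbers pair samples. These correlations, on values centred within groups of 4, cannot decide it. With the number as a replicate block, 0 genes were called lower after oxaliplatin, and 0 higher and 1 lower between the drugs. Groups of 4 libraries and a common coefficient of variation of 0.159 limit what small differences could pass, and genes under a few CPM are the least certain.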
